A study of Arabidopsis thaliana with 21 samples.

Results

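Plants of the camta1/3 double mutant were compared with wild-type (WT) plants at 22 °C. The comparison took the 3 arrays labelled camta1/3 at the warm temperature and the 3 arrays labelled WT at that temperature, 6 of the 21 arrays of the series, over all 22746 probe sets that are not controls. The series holds 7 groups of 3 biological replicates in the Col-0 background of Arabidopsis thaliana: WT, camta1/2, camta1/3, camta2/3 and camta1/2/3 at 22 °C, and WT and camta1/2/3 after 24 h at 4 °C. Each array was hybridised with amplified, biotinylated RNA of the entire aerial part of soil-grown plants, 3 weeks old, from a 12 h photoperiod. All plants compared here stayed at 22 °C and received no treatment. The labels name neither the mutant alleles nor how many plants went into a sample.

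The CAMTA proteins are calmodulin-binding transcription activators, which bind DNA and the calcium sensor calmodulin. CAMTA1, CAMTA2 and CAMTA3 are related members of the family in Arabidopsis, and a camta1/3 plant keeps only CAMTA2 of them. In leaves these factors are known for holding down salicylic acid synthesis and immune gene expression at warm temperatures, and for contributing to the induction of the CBF cold regulators. Salicylic acid is a hormone of defence against pathogens that feed on living cells.

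Levels are the authors' GCRMA-normalized log2 values, so a difference of 1 is a 2-fold change. The lowest value is 2.17. Values near 3 or below lie at the bottom of this scale, where a difference may understate the change. No detection calls were used, so differences from such levels are given on the log2 scale only and not as folds. The medians of the 6 arrays lay between 4.94 and 5.01. No probe set with a gene name in the annotation used here belongs to the 3 mutated loci, and whether an unnamed one does is not known, so the genotype of an array could not be checked on the mutated genes. Replicate 1 of each group stood apart from its fellows: on the second principal component of the 15 arrays at 22 °C (8.94% of the variance), WT replicate 1 lay at 18.93 and camta1/3 replicate 1 at 31.87, against -10.08 to -3.659 for the other 4 arrays compared. Of leaf markers, the Rubisco activase gene RCA stood at 13.66 ± 0.17 in WT and 13.60 ± 0.15 in camta1/3 (SD, n = 3). The root hair gene EXPA7 stood at the lowest value, 2.17, on all 6 arrays.

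In camta1/3 plants 502 probe sets, 2.21% of those tested, differed from WT, of which 379 (1.67%) were higher and 123 (0.541%) were lower (limma, two-sided, Benjamini-Hochberg adjusted p under 0.05, called below). The median difference was 1.28 among those called higher and -0.72 among those called lower, against 0.00 over all probe sets tested. At least 2-fold differences made up 298 of the calls (1.31%), 268 higher (1.18%) and 30 lower (0.132%). Called probe sets with a single named gene covered 237 genes of 13355 (1.77%), 169 higher (1.27%) and 68 lower (0.509%). A further 260 called probe sets had no gene name in the annotation used here, and 5 had several genes.

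**Figure D1:**
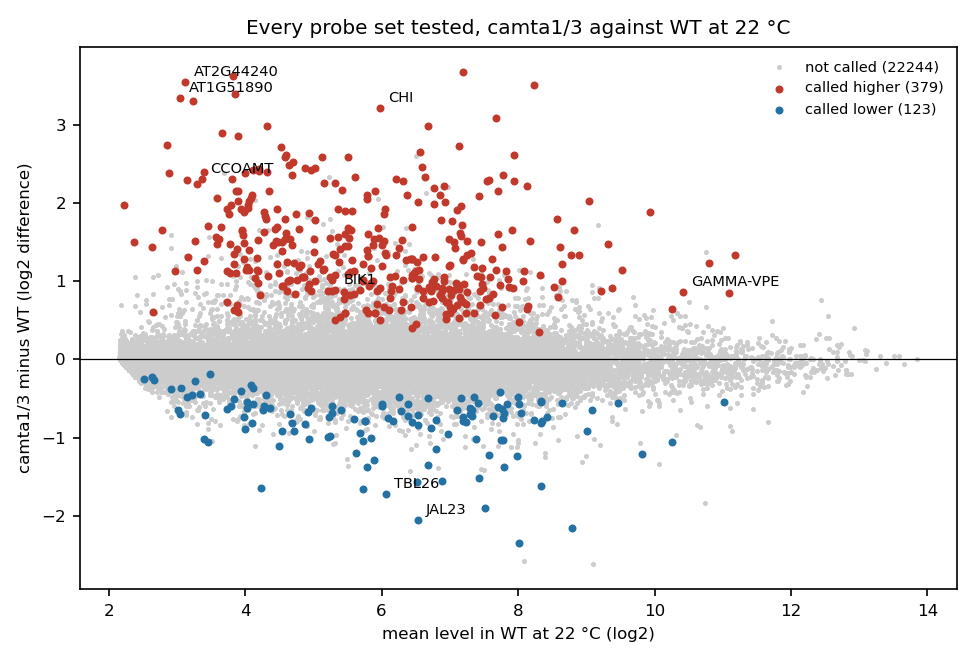
Difference between camta1/3 and WT (log2, vertical axis) against the mean level in WT (log2, horizontal axis), 1 point for each of 22746 probe sets, means of 3 arrays per group. Red points were called higher (379) and blue points called lower (123). Red points reach 3.68 on the vertical axis and blue ones -2.34.

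Of the 502 called probe sets, 500 had no overlap between the 3 arrays of one group and the 3 of the other. Over all probe sets 12.8% showed no overlap. The calls rest on a spread estimated over all 21 arrays, and a fit to the 6 arrays alone called 1 probe set (0.0044%), that of AT1G51890. Left out in turn, WT replicates 2 and 3 brought the count to 232 and 282, and camta1/3 replicates 2 and 3 brought it to 169 and 265. A count of 718 without WT replicate 1 and 438 without camta1/3 replicate 1 lay closer to the full count, and without both of these arrays, which stood apart, it was 621. Calls in all 6 fits that left out 1 array were made for 139 probe sets (0.611%), 115 of them higher (0.506%) and 24 lower (0.106%), which cover 62 named genes (0.464%).

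The called probe sets were spread over the range of levels except its ends. Of the 6646 probe sets with a WT level under 3, 0.181% were called. The share was 3.22% for WT levels of 3 to 5, 3.27% for 5 to 7, 3.15% for 7 to 9 and 1.2% above 9.

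Of named genes that were called and had non-overlapping groups, the 14 with the largest rises were higher in camta1/3 by at least 2.29 on the log2 scale. The first, AT2G44240, stood at 3.12 on each of the 3 WT arrays and at 5.0, 6.85 and 8.15 in camta1/3. All camta1/3 arrays lay above WT, with a wide spread among them. The difference was 3.55 ± 0.60 (SE, adjusted p = 0.00606 by limma).

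AT1G51890, a leucine-rich repeat receptor-like kinase gene, reached nearly the same level on each camta1/3 array. Receptor-like kinases are membrane proteins that sense signals outside the cell. Its level was 3.21, 2.97 and 2.96 in WT and 6.41, 6.41 and 6.33 in camta1/3, a difference of 3.34 ± 0.38 (SE, limma adjusted p = 0.000919) from a WT level at the bottom of the scale. It was also the gene called from the 6 arrays alone, with an adjusted p of 0.0112 by limma. The called receptor-like kinase gene AT5G59670, chosen after its values were seen, stood at 6.71, 5.76 and 5.22 in WT and at 7.51, 8.42 and 8.25 in camta1/3. It rose by 2.16 ± 0.32 (SE, limma adjusted p = 0.00293).

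The probe set named CHI (AT2G43570), annotated as a putative chitinase and not the chalcone isomerase of the same symbol, rose by 3.21 ± 0.66 (SE, limma adjusted p = 0.0187). Chitinases cut the chitin of fungal cell walls. CHI stood at 8.0, 5.61 and 4.32 in WT and at 9.66, 9.29 and 8.62 in camta1/3. The groups did not overlap, but WT replicate 1 came close to the lowest camta1/3 array. The call was lost without WT replicate 2 or 3 or camta1/3 replicate 1 or 2 (limma adjusted p of 0.0636 to 0.0822).

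CCOAMT (AT1G67980), named for caffeoyl-CoA methyltransferases, which methylate precursors of lignin and wall-bound phenolics, stood at 3.40, 3.45 and 3.24 in WT. In camta1/3 it stood at 6.53, 4.92 and 5.56, all above WT. It rose by 2.31 ± 0.37 (SE, limma adjusted p = 0.00462), and was called in every fit that left out 1 of the 6 arrays.

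The other loci among the 14 largest rises carry no symbol in the annotation. AT3G28510 stood at 2.85 on each WT array and at 4.85, 5.97 and 5.94 in camta1/3 (difference 2.74 ± 0.40 SE, limma adjusted p = 0.00269). AT4G18250 stood at 3.67, 4.05 and 3.67 in WT and at 5.41, 6.52 and 6.38 in camta1/3 (2.31 ± 0.27 SE, limma adjusted p = 0.000919). AT3G47480 went from 4.20 ± 0.60 in WT to 6.64 ± 0.13 (SD, n = 3), a difference of 2.44. Each of these loci had non-overlapping groups and was called in all 6 fits without 1 array. The same held for AT1G13470, with a difference of 2.72, and for AT1G10340, with a difference of 2.45.

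AT4G00700, AT5G18470, AT3G48640, AT3G60420 and AT5G55450 complete the leading rises. Their differences were 2.61, 2.59, 2.38, 2.33 and 2.29, with limma adjusted p of 0.00954, 0.041, 0.0178, 0.0133 and 0.0291. AT4G00700 lost its call only without camta1/3 replicate 2 (limma adjusted p = 0.063). The other 4 loci lost theirs without WT replicate 2, WT replicate 3 or camta1/3 replicate 2, and AT5G18470, AT3G48640 and AT5G55450 also without camta1/3 replicate 3, with limma adjusted p of up to 0.172, 0.102, 0.0809 and 0.145 for AT5G18470, AT3G48640, AT3G60420 and AT5G55450. AT5G18470 was also not called without camta1/3 replicate 1. In 10 of the 14 leading rises WT replicate 1 was the WT array nearest to camta1/3, against 6 of the 14 leading falls given below. The share over all probe sets was not worked out.

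The falls were smaller. The jacalin-related lectin gene JAL23 (AT2G39330) fell most among called genes with a name, by 2.05 on the log2 scale (SE 0.29, limma adjusted p = 0.00267). Jacalin-related lectins bind sugars, and several of them in Arabidopsis associate with myrosinases and beta-glucosidases. JAL23 stood at 7.33, 6.33 and 5.93 in WT and at 4.67, 4.43 and 4.34 in camta1/3. The groups lay far apart.

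TBL26 (AT4G01080) belongs to the TRICHOME BIREFRINGENCE-LIKE family, whose members acetylate polysaccharides of the cell wall. It stood at 6.67, 6.12 and 5.38 in WT and at 4.76, 4.15 and 4.11 in camta1/3, and fell by 1.72 (SE 0.27, limma adjusted p = 0.00456). The groups did not overlap. JAL23 and TBL26 were called in all 6 fits that left out 1 array, as were AT3G43270 (a fall of 1.35 from 6.68 ± 0.25 to 5.33 ± 0.42, SD, n = 3) and AT5G15240 (from 3.46 ± 0.22 to 2.40 ± 0.03, SD, n = 3, the latter at the bottom of the scale).

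**Figure D2:**
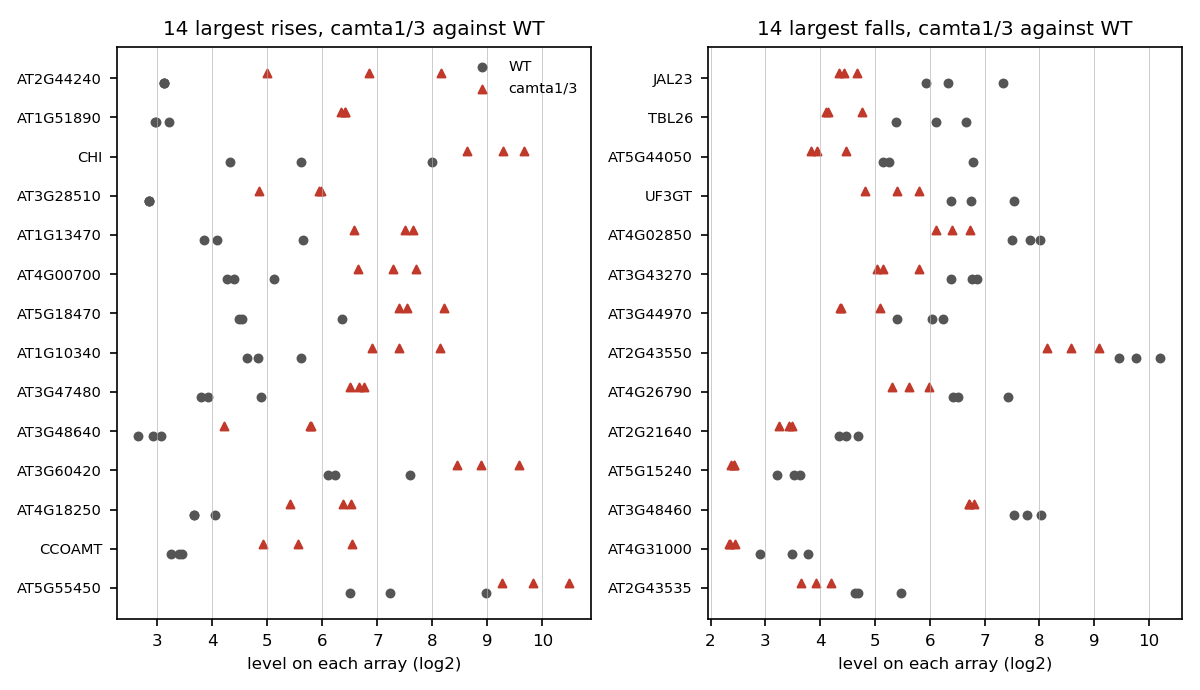
Level (log2) on each of the 3 WT arrays (grey circles) and the 3 camta1/3 arrays (red triangles) for the 14 largest rises and the 14 largest falls among named genes that were called and had non-overlapping groups. No row shows an overlap, as the choice of these genes required; the camta1/3 arrays of AT1G51890 lie close together at 6.33 to 6.41 and those of AT2G44240 spread from 5.0 to 8.15.

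The other leading falls were AT5G44050 (-1.65), UF3GT (-1.55), AT4G02850 (-1.37), AT3G44970 (-1.28), AT2G43550 (-1.21), AT4G26790 (-1.15), AT2G21640 (-1.11), AT3G48460 (-1.03), AT4G31000 (-1.02) and AT2G43535 (-1.01), as log2 differences from WT. Each of these calls was lost without camta1/3 replicate 2, and most also without WT replicate 2 or camta1/3 replicate 3. Without the array that raised it most, the limma adjusted p of these genes ranged from 0.0544 for AT4G31000 to 0.211 for UF3GT. AT3G48460 stood at 7.54, 7.77 and 8.03 in WT and at 6.81, 6.71 and 6.72 in camta1/3, with no overlap. AT4G31000 stood at 2.91, 3.49 and 3.78 in WT and at 2.44, 2.34 and 2.35 in camta1/3, at the bottom of the scale.

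Pathway lists were described by how many measured members were called, beside the median difference of the list, which over all probe sets was 0.00. The 36 lists held 552 entries, and 343 different genes of them had a named probe set, termed measured here. Other entries may lie on probe sets with no gene name or with several genes. Some lists were thinly covered and do not describe a whole pathway. Measured were 7 of 22 entries for pattern-triggered immunity, 3 of 22 for glucosinolates and 6 of 17 for COR and CBF genes. For flavonoids it was 6 of 18, and for jasmonate and ethylene 4 of 16. Of these 343 genes 15 (4.37%) were called in camta1/3, 7 higher and 8 lower, and 11 of the lists held a called gene. Over all 13355 named genes the share called was 1.77% (1.27% higher and 0.509% lower), which is the background to each count of list members given here. The lists and their members were chosen with earlier results of these data known. Their share of calls is therefore a description only and no test of the pathways. In bulk tissue, less RNA per cell and fewer cells of a type cannot be told apart.

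Salicylic acid synthesis and control had only 5 measured members of 22 entries, with 1 called higher and a median of 0.00 over those measured. The called member was AT5G52810, placed on the list for the synthesis of N-hydroxypipecolic acid, a mobile signal of systemic immunity. It stood at 6.81, 6.64 and 5.95 in WT and at 7.31, 7.72 and 7.58 in camta1/3, without overlap. It rose by 1.07 ± 0.21 (SE, limma adjusted p = 0.0158) and lost the call without WT replicate 3 or camta1/3 replicate 2 or 3 (limma adjusted p of 0.0543 to 0.0873). SAG101, a partner of the immune regulator EDS1, stood at 4.59 ± 0.20 in WT and 5.31 ± 0.36 in camta1/3 (SD, n = 3, limma adjusted p = 0.221), and UGT74F1, a glucosyltransferase that acts on salicylic acid, at 6.01 and 6.0. BSMT1, which methylates salicylic and benzoic acid, stood at 3.51 ± 1.15 and 2.47 ± 0.16 (SD, n = 3, limma adjusted p = 0.575). Of the 16 entries of the salicylic acid response list only the glutaredoxin gene GRX480 had a named probe set. It stood at 6.31, 5.46 and 5.17 in WT against 7.30, 6.45 and 5.90 in camta1/3 (limma adjusted p = 0.276), with overlapping groups.

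Pattern-triggered immunity, the response to molecules shared by many microbes, had 7 measured members and 1 called higher, with a list median of 0.19. The called gene was BIK1 (AT2G39660), a receptor-like cytoplasmic kinase that passes signals on from pattern receptors. It stood at 5.45, 5.15 and 5.35 in WT and at 6.32, 6.22 and 6.09 in camta1/3. The groups were clearly apart, and the rise was 0.89 ± 0.10 (SE, limma adjusted p = 0.000919, called in all 6 fits without 1 array). The bacterial elongation factor receptor gene EFR stood at 3.13 ± 0.23 and 3.32 ± 0.27 (SD, n = 3).

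WRKY53, a transcription factor gene of defence and leaf senescence, stood at 5.66, 3.83 and 2.76 in WT and at 6.03, 6.39 and 6.03 in camta1/3. The groups did not overlap and the difference was 2.07, but the WT arrays ranged widely and the gene was not called (limma adjusted p = 0.165). None of the 6 WRKY genes measured was called. SBT3.3, a subtilase gene linked to immune priming and picked with its values known, likewise differed by 2.38 without a call. It went from 4.97, 3.10 and 3.01 in WT to 6.51, 5.74 and 5.98 in camta1/3 (limma adjusted p = 0.0524). For both genes WT replicate 1 was the highest WT array.

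Of 14 calcium and calmodulin signalling genes, 2 rose and 1 fell. GLR2.7, a glutamate receptor-like ion channel gene, stood at 4.75, 4.33 and 4.21 in WT and 5.66, 6.54 and 6.10 in camta1/3, and rose by 1.67 ± 0.25 (SE, limma adjusted p = 0.00303). CML41, a calmodulin-like protein of plasmodesmata, rose by 1.44 ± 0.33 (SE, limma adjusted p = 0.0367) from a WT mean of 2.64, near the bottom of the scale. GLR3.5, of the same channel family, fell by 0.62 (SE 0.11, limma adjusted p = 0.006), from 4.51, 4.27 and 4.29 to 3.72, 3.72 and 3.76. GLR2.7 and GLR3.5 were called in all 6 fits without 1 array, while CML41 lost its call without replicate 2 or 3 of either group (limma adjusted p of 0.138 to 0.146). The list median was 0.06.

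Of 25 genes with a CYP symbol, 3 rose and none fell, and the list median was 0.05. CYP71, a cyclophilin gene, was left off the list. Apart from CYP59, another cyclophilin gene, the symbol stands for cytochrome P450, a family of enzymes that oxidise small molecules. The 3 are neighbours on chromosome 3: CYP71B24 rose by 1.79, CYP71B23 by 1.60 and CYP71B22 by 1.15 (limma adjusted p of 0.006, 0.0219 and 0.0365). CYP71B24 stood at 4.65, 4.54 and 4.57 in WT and at 6.07, 6.20 and 6.87 in camta1/3, far apart, and was called in all 6 fits without 1 array. CYP71B23 lost its call without replicate 2 or 3 of either group (limma adjusted p of up to 0.103), and CYP71B22 without any 1 of the 6 arrays (up to 0.124). Near-identical neighbours can share signal on an array, which the values here do not resolve.

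Flavonoid and anthocyanin synthesis, the source of red and purple leaf pigments, had 2 of 6 measured genes called lower and none higher, and the list median was -0.97. UF3GT (AT5G54060), a sugar transferase of anthocyanin synthesis, stood at 6.38, 7.53 and 6.75 in WT and at 5.81, 5.40 and 4.81 in camta1/3, without overlap (a fall of 1.55, SE 0.38, limma adjusted p = 0.0477). UGT78D2, a flavonoid glucosyltransferase gene, stood at 8.05, 7.74 and 7.73 in WT and at 7.19, 7.61 and 7.0 in camta1/3 (a fall of 0.57, SE 0.14, limma adjusted p = 0.041). DFR, the reductase that leads to anthocyanidins, was not called, with 7.32, 7.97 and 7.06 in WT against 6.56, 6.08 and 5.52 (difference -1.40, limma adjusted p = 0.057).

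The flavonol rhamnosyltransferase gene UGT78D1 differed by -0.54 and the malonyltransferase gene AT5MAT by -0.13, neither called (limma adjusted p of 0.388 and 0.974). Neither call of this list held in all 6 fits that left out 1 array. UF3GT was not called without replicate 2 or 3 of either group (limma adjusted p of 0.106 to 0.211), and UGT78D2 was called only without camta1/3 replicate 2 (0.0705 to 0.161 otherwise).

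Other single calls came from families of enzymes and secreted proteins. The wall list of expansins, XTH and TBL genes had 2 of 50 lower, TBL26 and TBL25, with a list median of -0.07. TBL25 fell by 0.57, from 7.91, 7.89 and 8.24 to 7.64, 7.15 and 7.53 (limma adjusted p = 0.0423). The glutathione S-transferase gene GSTU26 fell by 0.62 (limma adjusted p = 0.00929), 1 of 13 measured, and UGT78D2 was the 1 call among 47 UDP-glycosyltransferases. THI2.1, an antimicrobial thionin gene known for induction by jasmonate, fell by 0.51 from 3.65, 3.83 and 4.04 to 3.43, 3.14 and 3.43 (limma adjusted p = 0.0148). It was the 1 call among 4 jasmonate and ethylene genes and among 9 genes with a PDF or THI symbol, which are defensins and thionins except for the peptide deformylase genes PDF1A and PDF1B. JAL23 was the 1 call among 25 beta-glucosidases and jacalin lectins. TBL25 lost its call without replicate 2 or 3 of either group, THI2.1 without WT replicate 2 or 3 or camta1/3 replicate 2, and GSTU26 without replicate 2 of either group, with limma adjusted p of up to 0.196, 0.0832 and 0.0525.

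None of 6 measured COR and CBF regulon genes, which are induced in cold, was called, and the list median was -0.32. COR15A, a chloroplast protein that protects membranes in frost, stood at 9.81, 8.85 and 8.33 in WT and at 8.88, 7.18 and 7.22 in camta1/3, with overlapping groups (difference -1.24 ± 0.56 SE, limma adjusted p = 0.394). In both groups replicate 1 was the highest, as it was for COR47 and the dehydrin gene LTI30. The zinc finger gene STZ, induced early in cold, stood at 5.43 ± 0.84 and 6.61 ± 0.59 (SD, n = 3, limma adjusted p = 0.206).

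No call was made among 29 photosynthesis genes (median 0.01, range -0.29 to 0.78), 69 plastid-encoded genes (median 0.07), 14 SWEET sugar transporters, 8 genes with an ATG symbol, 7 tubulins, 7 subtilases, 5 ribosome biogenesis genes, 3 glucosinolate genes or 3 genes of protein folding in the endoplasmic reticulum. The ATG genes, ATG3 and members of the ATG8 family, had differences of 0.03 to 0.68, all positive. These lists were drawn by symbol and leave out the called autophagy gene APG8A and the called sugar porter gene SFP2, whose values are given with the other called genes. The CAMTA relatives AT1G67310, AT4G16150 and AT3G16940 differed by 0.21, 0.17 and 0.11, none called. Of cell type markers, the leaf (4 measured), root (2) and guard cell (1) lists had no call. No flower, seed or trichome marker of the lists had a named probe set. PYK10, a beta-glucosidase gene high in roots, stood at 7.97 ± 0.48 in WT and 7.57 ± 0.46 in camta1/3, and the guard cell gene FMA at 4.74 ± 0.23 and 4.48 ± 0.12 (SD, n = 3).

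**Figure D3:**
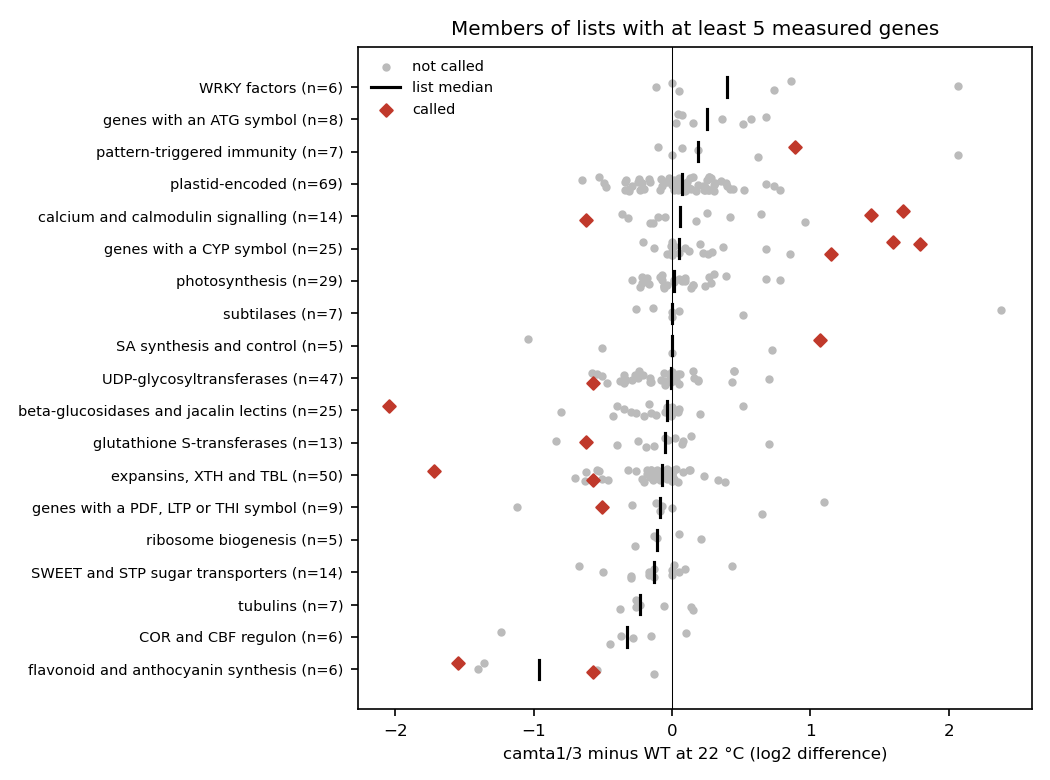
Difference between camta1/3 and WT (log2, horizontal axis) for each measured member of the 19 lists with at least 5 measured genes, with the list median as a bar and called genes as red diamonds. The flavonoid list has the lowest median, -0.97, and called rises occur in 4 of these lists, of which the calcium list also holds a call below 0.

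Of the 237 called genes 37 have a symbol, 25 of them higher and 12 lower. This set was drawn up after the values were seen. GAMMA-VPE, a cysteine protease of the vacuole that matures other proteins, stood at 10.50, 10.45 and 10.32 in WT and at 11.36, 11.14 and 11.34 in camta1/3. The arrays of each group lay close together, and the rise was 0.86 ± 0.14 (SE, limma adjusted p = 0.00507). YLS5, named from yellowing leaves and a member of the DJ-1 family, rose by 1.44 ± 0.22 (SE, limma adjusted p = 0.00324), from 7.95, 7.58 and 7.75 to 9.09, 9.32 and 9.20.

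MSRB9, a methionine sulfoxide reductase that repairs oxidised protein, rose by 1.54 ± 0.26 (SE, limma adjusted p = 0.006), from 5.89 ± 0.41 to 7.43 ± 0.33 (SD, n = 3). LPR2, a multicopper oxidase gene of the low phosphate response, rose by 1.29 ± 0.18 (SE, limma adjusted p = 0.0024), and DPL1, a lyase that breaks down phosphorylated sphingoid bases, by 0.88 ± 0.14 (SE, limma adjusted p = 0.00456). These 5 genes, GAMMA-VPE to DPL1, were called in all 6 fits without 1 array.

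Other called genes with a symbol were not called in all 6 fits that left out 1 array. CSA1, an intracellular immune receptor gene, rose by 0.75 from 6.77, 6.70 and 6.81 to 7.17, 7.74 and 7.61 (limma adjusted p = 0.0322), and stayed called only without camta1/3 replicate 1. APG8A, a ubiquitin-like protein of autophagosome membranes, rose by 0.87 (limma adjusted p = 0.0193). RING1, a ubiquitin ligase gene, rose by 1.52 from 8.72, 8.04 and 7.79 to 8.85, 10.30 and 9.96 (limma adjusted p = 0.0478), with camta1/3 replicate 1 close to the highest WT array. ALDH2C4, a dehydrogenase of ferulic and sinapic acid synthesis, rose by 0.91 (limma adjusted p = 0.0224). APG8A, RING1 and ALDH2C4 lost their calls without replicate 2 or 3 of either group, with limma adjusted p of up to 0.0953, 0.219 and 0.0952.

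The gene with the symbol ACA.l (AT1G13210) rose by 1.86, the cation exchanger gene CHX16 by 1.47, ZCF37 by 1.45 and the glycan-cleaving enzyme gene ENGase85A by 1.39 (limma adjusted p of 0.02, 0.0158, 0.038 and 0.0178). Smaller rises were those of the pectin methylesterase gene PMEPCRF (0.82), SPI (0.60), EPC1 (0.59) and BUG22 (0.59). Among the falls, the sugar porter gene SFP2 went down by 0.94, the acyl carrier protein thioesterase gene FaTA by 0.63, the fatty acid elongation gene HOS3-1 by 0.60 and PRA1.B4 by 0.48. Without 1 array, the highest limma adjusted p of these 12 genes ran from 0.0763 for CHX16 to 0.228 for SFP2, so that none was called in all 6 such fits.

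Called genes were in part neighbours on the chromosomes. In the RefSeq order of protein-coding genes, 235 called genes could be placed, and 21 of them lay in 8 clusters of called genes at most 3 genes apart, a grouping looked at after the values were seen. How many such clusters as many genes placed at random would form was not worked out, so the grouping is a description only. In 7 clusters all members moved one way, while of all 237 called genes 169 were higher. On chromosome 1 AT1G51860 (1.22) lay with AT1G51890, and AT1G72890 (0.88) with its TIR-domain neighbours AT1G72900 (1.25) and AT1G72920 (1.54), all called higher. AT1G51860 kept its call in 2 of the 6 fits without 1 array and AT1G72890 in 3. AT1G72920 stood at 4.62, 4.41 and 4.73 in WT and at 5.98, 6.10 and 6.29 in camta1/3, and was called in all 6 fits without 1 array. AT1G72900 was called in none of these fits, though its groups, 5.31, 5.40 and 5.42 against 6.77, 6.71 and 6.41, lay far apart. The mixed cluster lay on chromosome 2, where AT2G43535, AT2G43550 and AT2G43560 fell and their neighbour CHI rose. AT2G43550 stood at 10.21, 9.77 and 9.45 in WT and at 9.08, 8.14 and 8.57 in camta1/3.

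To place camta1/3 among the other genotypes at 22 °C, it was tested directly against each of them, with 3 arrays a group and the same fit. Against camta1/2, which keeps CAMTA3, 2 probe sets (0.00879%) were called, both higher in camta1/3, and 911 (4.01%) had an unadjusted p under 0.05. Against camta2/3, which keeps CAMTA1, 24 (0.106%) were called, 17 higher (0.0747%) and 7 lower (0.0308%) in camta1/3. In camta1/2/3, where CAMTA2 is mutated too, 2177 (9.57%) were called against camta1/3, 1007 higher (4.43%) and 1170 lower (5.14%). On the first principal component of the arrays at 22 °C (53% of the variance) the camta1/3 arrays lay at -10.65 to 0.8523, between camta1/2 (-26.57 to -10.57) and camta2/3 (16.34 to 24.34), with WT at -53.6 to -35.16 and camta1/2/3 at 49.88 to 54.49. Only the arrays of camta1/2 and camta1/3 met on this axis.

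A sign of RNA quality, the signal of the actin control's 3′ probe set minus that of its 5′ probe set, moved with some of these groups. It was 2.73, 2.51 and 2.21 in camta1/3. All 3 camta1/2 arrays lay lower, at 2.09, 2.04 and 2.14, and all 3 camta1/2/3 arrays lay higher, at 2.96, 3.0 and 2.75. The camta2/3 arrays, at 2.72, 2.71 and 2.43, lay within the range of camta1/3. The same difference for the GAPDH control was -0.26, -0.02 and 0.03 in camta1/3. All camta2/3 arrays (0.22, 0.51 and 0.37) and all camta1/2/3 arrays (0.18, 0.26 and 0.24) lay higher. Those of camta1/2 (-0.03, 0.12 and 0.08) overlapped camta1/3. The part of either control in the differences between these genotypes was not tested.

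Leaving out camta1/3 replicate 1 brought the counts against camta2/3, camta1/2 and camta1/2/3 to 2, 0 and 1437. The count against camta2/3 was also 13 without camta1/3 replicate 3, 14 without camta2/3 replicate 2 and 8 without camta2/3 replicate 3. The balance of directions turned when any 1 camta2/3 array was left out, to 11 higher and 14 lower, 5 and 9, and 3 and 5 in camta1/3 without replicates 1, 2 and 3. The count against camta1/2 was 10 without camta1/2 replicate 1, 8 without its replicate 3 and 1 without WT replicate 2. Here too the balance turned without any 1 camta1/2 array, to 2 higher and 8 lower, 0 and 3, and 2 and 6 without replicates 1, 2 and 3. Against camta1/2/3, rises outnumbered falls, 743 to 694, without camta1/3 replicate 1, and 950 to 761 without camta1/2/3 replicate 2.

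The probe sets called higher in camta1/3 had a median level of 5.85 in WT and 7.21 in camta1/3, and of 6.73, 7.64 and 7.95 in the camta1/2, camta2/3 and camta1/2/3 mutants. Those called lower had a median of 6.17 in WT and 5.34 in camta1/3, and of 5.53, 4.96 and 4.53 in the same other mutants. They were chosen on the difference between camta1/3 and WT, and every comparison with WT uses the same 3 WT arrays, so these medians are a description only.

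CCOAMT stood at 3.36 ± 0.11 in WT and 5.67 ± 0.81 in camta1/3 (SD, n = 3), and its means in the camta1/2, camta2/3 and camta1/2/3 plants were 4.04, 6.82 and 8.55. The step from camta1/3 to camta1/2/3 was 2.88 (limma adjusted p = 0.000235), while those to camta2/3 and camta1/2 were not called (0.397 and 0.461). BIK1 rose further from 6.21 in camta1/3 to 7.37 in camta1/2/3 (limma adjusted p = 1.32e-05), and stood at 6.01 in camta1/2 and 6.66 in camta2/3. CHI stood at 9.19 in camta1/3 and 9.66 in camta1/2/3, a difference that was not called (limma adjusted p = 0.835). AT1G51890 stood at 6.38 and 7.47 (limma adjusted p = 0.0869).

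**Figure D4:**
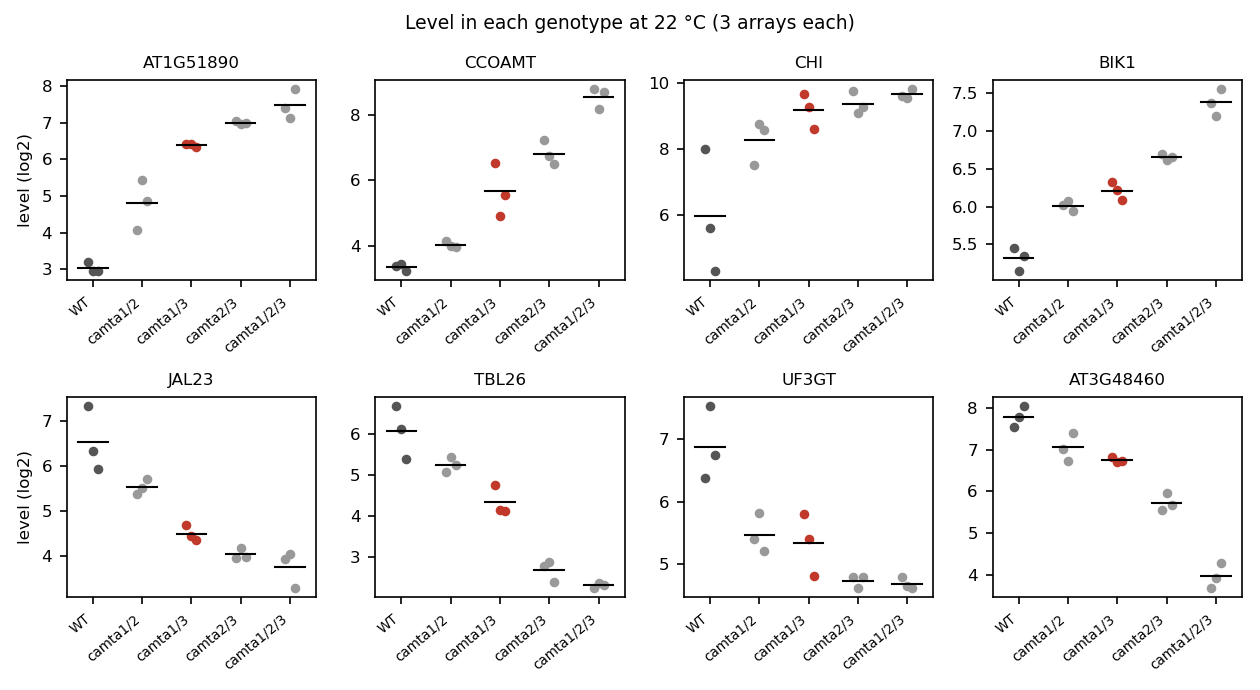
Level (log2, vertical axis) on each of the 3 arrays of 5 genotypes at 22 °C for 4 genes that rose (upper row) and 4 that fell (lower row) in camta1/3, with camta1/3 in red and bars at the group means. Vertical axes differ between panels and do not start at 0; CCOAMT goes from a mean of 3.36 in WT to 8.55 in camta1/2/3, and AT3G48460 from 7.78 to 3.98.

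Among the 14 leading rises 13 stood higher still in camta1/2/3, and 5 of these differences were called: CCOAMT, AT3G28510, AT1G10340, AT3G48640 and AT4G18250. Among the 14 leading falls 13 stood lower still, 6 of them called, with AT3G48460 going from 6.75 in camta1/3 to 3.98 (limma adjusted p = 8.33e-06) and AT2G43550 from 8.60 to 6.30 (limma adjusted p = 4.18e-05). TBL26 went from 4.34 in camta1/3 to 2.30 (limma adjusted p = 0.000314), which is at the bottom of the scale. Over all probe sets 4.43% were called higher and 5.14% lower in camta1/2/3 than in camta1/3. The leading genes were chosen on their camta1/3 values, which enter both comparisons, so these counts are a description only.

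Some list members that were not called between camta1/3 and WT differed between camta1/2/3 and camta1/3, where 9.57% of all probe sets were called. How many list members did so was not counted, so those given are examples only. PDF1.4 and PDF1.2 were picked with their values known. The defensin gene PDF1.4 stood at 4.99 in WT, 4.92 in camta1/3 and 8.13 in camta1/2/3 (difference from camta1/3 of 3.21, limma adjusted p = 8.18e-06). The defensin gene PDF1.2, a marker of jasmonate and ethylene response, stood at 6.09, 6.74 and 3.89 (difference from camta1/3 of -2.85, limma adjusted p = 0.00506). COR15A went from 7.76 in camta1/3 to 5.08 in camta1/2/3 (limma adjusted p = 0.00702), and the CAMTA relative AT1G67310 from 6.59 to 7.57 (limma adjusted p = 0.00536).

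The direct differences between double mutants were few. TBL26 was 1.67 higher in camta1/3 than in camta2/3 (limma adjusted p = 0.0264), where it stood at 2.77, 2.86 and 2.39. The fructose transporter gene SWEET17 stood at 8.43, 8.03 and 8.29 in camta1/3 and at 7.31, 6.89 and 7.26 in camta2/3 (difference 1.10, limma adjusted p = 0.0223). Its WT level was 8.55, and camta1/3 was not called against WT (limma adjusted p = 0.552).

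A few probe sets, picked after their values were seen, were low in each group whose label lists a given gene. Probe set 245910_at, without a gene name here, stood at 7.88, 7.98 and 8.19 in WT and at 5.92, 5.60 and 5.52 in camta1/3. It was the largest called fall of all, 2.34 on the log2 scale (SE 0.19, limma adjusted p = 7.16e-05), with means of 5.85 in camta1/2, 5.01 in camta1/2/3 and 7.71 in camta2/3. Thus it was low in the 3 mutants whose label lists camta1 and near WT in the one whose label does not. It was 2.03 lower in camta1/3 than in camta2/3 (limma adjusted p = 0.000235).

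Probe set 250604_at, also unnamed, stood at 5.55, 6.16 and 5.67 in WT and at 4.4, 4.35 and 4.48 in camta1/3, a fall of 1.38 (SE 0.19, limma adjusted p = 0.00219). Its means were 4.35 in camta1/2, 4.41 in camta1/2/3 and 6.64 in camta2/3, the last 0.85 above WT (limma adjusted p = 0.00935). Probe set 247270_at and AT3G57220 were the 2 probe sets called between camta1/3 and camta1/2. Probe set 247270_at stood at 5.55, 5.11 and 5.60 in WT and at 5.41, 5.85 and 4.98 in camta1/3, which overlapped, and at means of 3.27 in camta1/2, 3.22 in camta2/3 and 3.40 in camta1/2/3 (camta1/3 minus camta1/2 2.15, limma adjusted p = 0.0238). AT3G57220 stood at 6.47 in WT and 6.52 in camta1/3, and at 6.05, 6.04 and 5.92 in the same 3 mutants (0.48, limma adjusted p = 0.0238). Both were low where the label lists camta2. Where the 3 unnamed probe sets lie relative to the mutated genes is not known here.

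**Figure D5:**
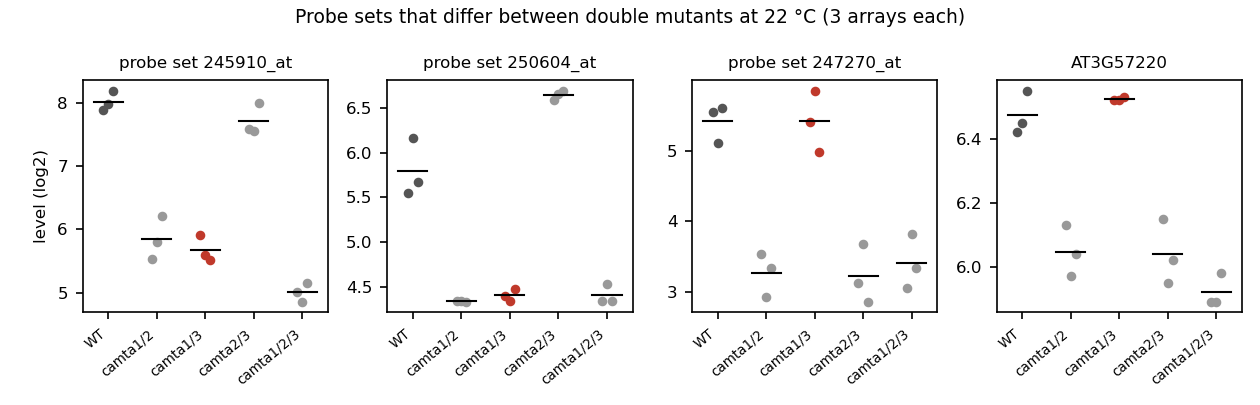
Level (log2, vertical axis) on each of the 3 arrays of 5 genotypes at 22 °C for 4 probe sets that differ between double mutants, with camta1/3 in red and bars at the group means; axes differ between panels and do not start at 0. The left 2 panels are low in each mutant whose label lists camta1, the right 2 in each whose label lists camta2.

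Between camta1/3 and WT the actin values met. They were 2.15, 2.46 and 2.07 in WT and 2.73, 2.51 and 2.21 in camta1/3, where replicate 3 overlapped the WT arrays. The difference of 0.26 gave p = 0.2 in a two-sided exact permutation test, of which 0.1 is the smallest p that 3 against 3 arrays allow. With the actin value as a covariate 436 probe sets were called between camta1/3 and WT. The GAPDH values of WT (-0.06, 0.16 and 0.05) and camta1/3 (-0.26, -0.02 and 0.03) overlapped too.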

How the data were processed

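Total RNA of the entire aerial part was extracted, amplified, biotinylated and hybridised to 1-colour arrays, per the labels' protocols. The submitters' processing notes name GCRMA and limma without versions. The deposited log2 values, made by the authors with GCRMA, were taken without further normalization. Of 22810 probe sets 64 controls were left out. Genes came from the platform annotation: 13513 probe sets had 1 gene, of which 13436 were matched to RefSeq, 503 had several and 8730 had none. A gene with several probe sets is given by the one with the highest mean.

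Means of 7 groups were fitted to 21 arrays (limma 3.58.1, lmFit and eBayes, R 4.3.3; 14 residual and 0.954 prior degrees of freedom), with Benjamini-Hochberg adjustment over 22746 probe sets. The members and lists were chosen with earlier results of these data known. Genes were named as the 14 largest rises and falls among those called with non-overlapping groups. To these came up to 5 called members of a list, or 2 of a list with none. The 6 largest direct differences each way that were also called against WT were added. COR15A and the measured CAMTA relatives were always given. Uncalled list members outside this rule, such as SBT3.3, DFR, SAG101, BSMT1, EFR, PDF1.4 and PDF1.2, were picked with their values known. Others are said to be chosen later. In simulated data of 22746 probe sets for camta1/3 against WT, 23.9%, 71.6% and 95.5% of log2 changes of 0.5, 1 and 2 were called, and 5 of 132 calls were unchanged probe sets. There 200 probe sets were changed, and the residuals of each probe set were shuffled separately over the 21 arrays. Effects shared by an array or a replicate number were thus not kept, and these shares need not hold for the real calls. The limma p-values of the main fit rest on the spread within groups, pooled over all 7 groups, those at 4 °C included. They do not measure the spread of the WT and camta1/3 arrays alone. The 3 arrays a group limit the precision.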

Additional observations from a re-analysis of the deposited data

How the results depend on the processing

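The 502 calls between camta1/3 and WT became 1006 with array weights, 1 in the 6 arrays alone (where 2276 probe sets, 495 of the 502 among them, had an unadjusted p under 0.05), 188 with 1 probe set per gene, 298 at 2-fold or more and 156 at an adjusted p under 0.01, and 169 to 718 with 1 array left out. Counts under quantile normalization (521), median centring (571), level filters at 4 (716 and 732), trended (507) and robust (478) variances and arrays at 22 °C only (406) stayed within 1.5 times. Of the calls 75.5% were higher, 71.4% after quantile normalization and 66.9% after median centring, which shifted the median of all probe sets by -0.04. The replicate numbers were not taken to pair the arrays, since the residuals of replicate 2 of WT and camta1/3 correlated at 0.0572. Those of replicates 1 and 3 correlated at 0.227 and 0.281. Yet each of the 6 arrays had its closest residuals with its own number, and among all 21 arrays 16 did. Any effect shared by a replicate number therefore stayed in the spread of the main fit. With the replicate number as a block there were 540 calls, of which 452 are shared with the 502, and 65 of 71 named genes kept the call. The counts against camta2/3 (24), camta1/2 (2) and camta1/2/3 (2177) became 49, 1 and 2548 with the block, 3, 0 and 481 in the 6 arrays of each pair alone, and 2 to 25, 0 to 10 and 1437 to 2203 with 1 array left out. Median centring left 1 call against camta1/2. Of 343 list genes 15 were called, 26 with array weights, 0 in the 6 arrays alone, 9 at 2-fold or more, 7 at an adjusted p under 0.01 and 7 to 20 with 1 array left out. The actin difference of 0.26 ranged from 0.13 to 0.39. Of the 71 named genes called, 71 kept the call with array weights, 68 under quantile normalization, 52 in the arrays at 22 °C and 29 to 64 with 1 array left out, and no direction was reversed under any of these settings. Actin as a covariate (436 calls, 401 of them among the 502) and both replicate 1 arrays left out (621, 371 among them) were added after the data were seen. The causes of these changes were not tested, beyond the fewer arrays or probe sets in some.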

Other observations

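Among the 260 called probe sets without a gene name, 262832_s_at rose most, from a mean of 7.20 in WT to 10.88 in camta1/3 (difference 3.68 ± 0.61 SE, limma adjusted p = 0.00586, n = 3 per group). It was followed by 258277_at, from 3.82 to 7.43 (3.62 ± 0.54 SE, limma adjusted p = 0.00324). The 252607_at probe set fell from 8.79 to 6.63 (SE 0.39, limma adjusted p = 0.00825).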
